A study of Mus musculus with 24 samples.

Results

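The 10 genes described here carry out or report the response of a mouse cell to foreign compounds: Ahr, Arnt, Ahrr, Tiparp, Cyp1a1, Cyp1b1, Nqo1, Hmox1, Gclm and Gclc. They were chosen by name, as the rows with these symbols among the 41444 genes of the expression tables, and all 10 were found. The cells were BCR-ABL1+ murine B-ALL cells (B-cell acute lymphoblastic leukaemia) from bone marrow, grown in culture, that carry Cre-ERT2 and floxed Foxo1 alleles (Foxo1 fl/fl), and every group shares that genotype. Cultures received 200 nM 4-OHT (4-hydroxytamoxifen, which switches on Cre-ERT2 and so deletes floxed Foxo1) or an equal amount of its vehicle EtOH. Other cultures were given AS1842856 at 70 nM, which inhibits FOXO1, or the vehicle DMSO. RNA was collected after 24 h or 48 h, which gives 8 groups of 3 libraries and 24 libraries in all. The comparisons ask whether genes of the 2 classical foreign-compound pathways moved with either small molecule.

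The aryl hydrocarbon receptor (AHR) waits in the cytosol with HSP90 and other chaperones until a planar aromatic ligand binds it. It then enters the nucleus, pairs with ARNT and binds DNA at a short core motif, which turns on Cyp1a1, Cyp1b1, Tiparp and Ahrr. NRF2, encoded by Nfe2l2, is held and degraded by KEAP1 until electrophiles or oxidants release it, after which it pairs with small MAF proteins at antioxidant response elements and turns on Nqo1, Hmox1, Gclm and Gclc. Nqo1 is a target of both factors. In the mouse, AHR is present in lymphocytes, and environmental AHR ligands are known to disturb B cell development in bone marrow.

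Expression is given throughout as the authors' normalised value on a log2 scale, which pulls values toward the mean of a gene. A difference on this scale understates the change of a gene with few reads, and is often smaller for well-expressed genes too. With 4-OHT at 48 h it was −1.97 for Foxo1 and −0.47 for Tiparp, against −3.11 and −0.73 in the authors' log2 fold changes. Changes were tested with limma over the 11470 genes whose mean over all libraries corresponds to a normalised count of at least 10, and a gene was called changed at a Benjamini-Hochberg adjusted p under 0.05. Ahr, Arnt, Tiparp, Hmox1, Gclm and Gclc passed that minimum, 6 of the 10, and Ahrr, Cyp1a1, Cyp1b1 and Nqo1 did not. Shares of all tested genes called are at an adjusted p, and no share was taken at an unadjusted p. Foxo1, the deleted gene, fell from 9.84 to 8.14 with 4-OHT at 24 h and from 10.06 to 8.10 at 48 h (group means, limma adjusted p = 4.09e-06 and 1.01e-07). No group that received 4-OHT without floxed alleles or without Cre-ERT2 was used here, so an effect of 4-OHT itself and an effect of Foxo1 loss cannot be told apart. All 10 B-lineage markers were expressed. The labels do not state whether the libraries of a group come from separate cultures or from 1 clone, and p-values then measure only the spread between these libraries.

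The levels of the 10 genes spanned a wide range. As authors' mean levels per kilobase of exon, on a log2 scale over all 24 libraries, the order from the highest was Gclc (8.85), Arnt (7.47), Gclm (7.13), Tiparp (7.11), Hmox1 (5.70), Ahr (3.17), Nqo1 (0.81), Ahrr (−0.35), Cyp1a1 (−1.22) and Cyp1b1 (−2.92). The glutathione enzymes and the AHR partner ARNT were therefore abundant, while the receptor itself was low, with a mean normalised count of 55.4 for Ahr against 1420 for Arnt. The 2 cytochrome P450 genes, the standard reporters of AHR activity, were close to undetected, with mean normalised counts of 1.2 for Cyp1a1 and 0.769 for Cyp1b1. These counts were back-calculated from the authors' mean level, taken as the log2 of a mean normalised count plus an offset. That form is an assumption, and the minimum on low genes rests on it as well. No library total came with the values, so no limit of detection can be put on these counts.

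**Figure D1:**
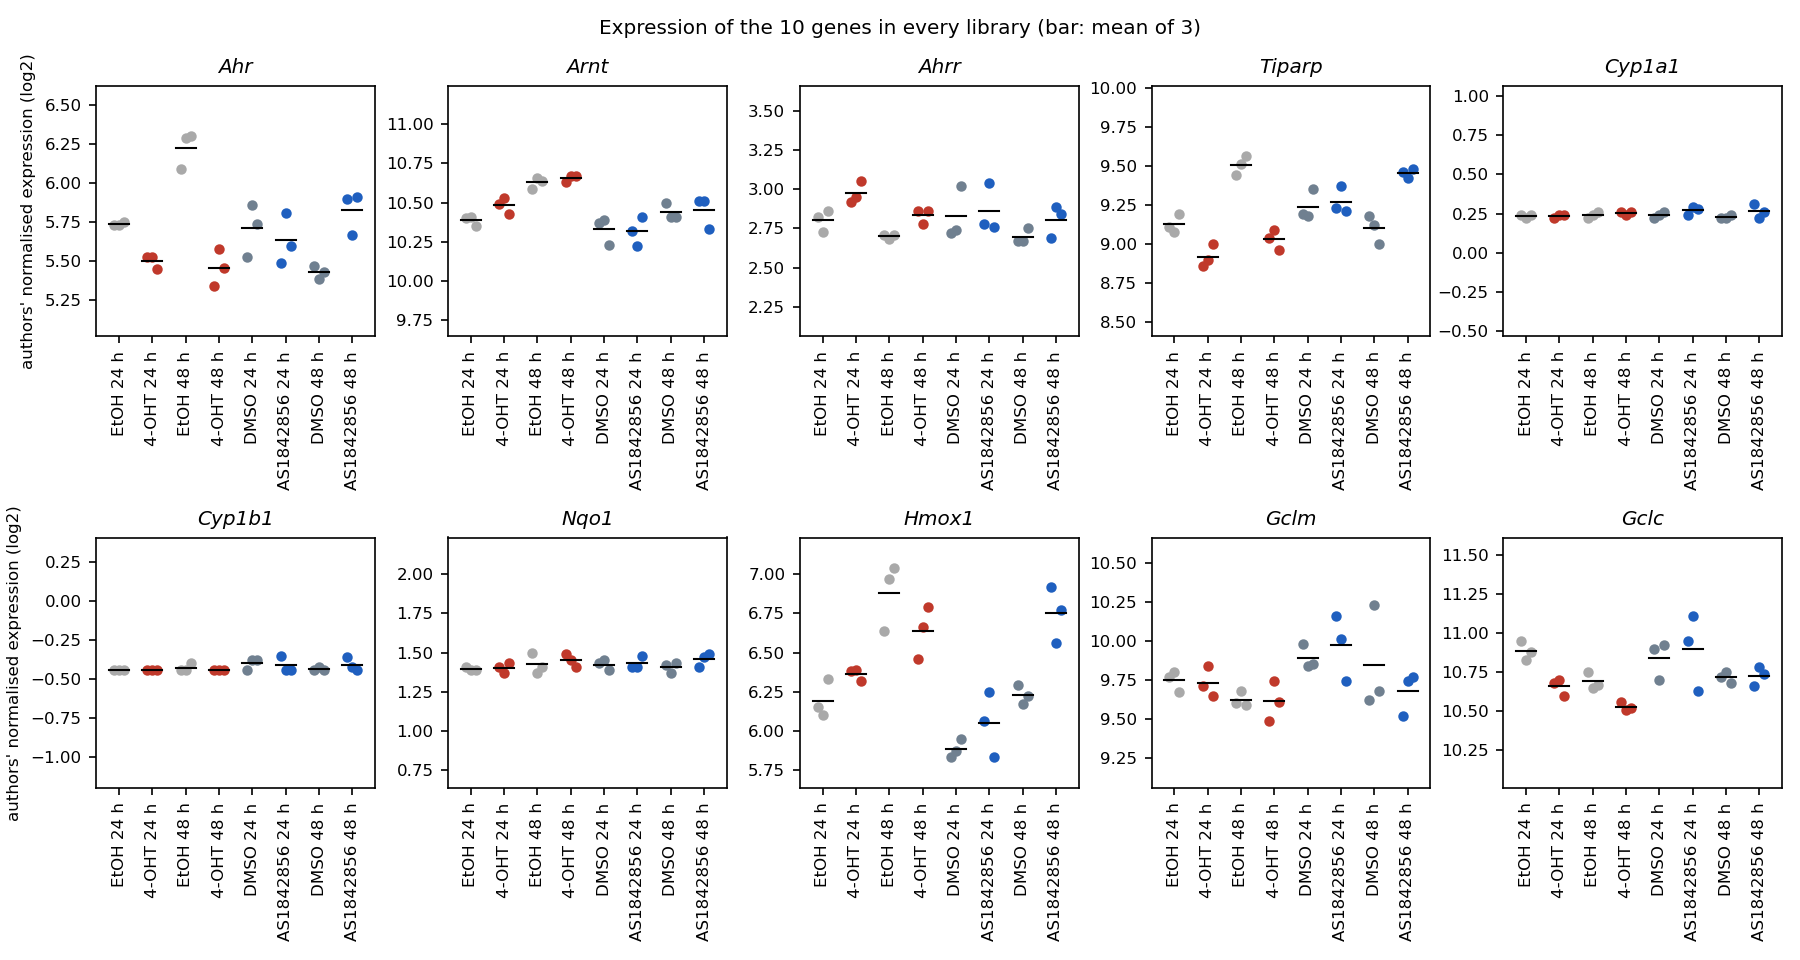
Authors' normalised expression (log2, y axis) of each of the 10 genes in every library, by group along the x axis; points are libraries and bars are means of 3. Each panel spans at least 1.5 log2 units, and Cyp1a1, Cyp1b1 and Nqo1 are flat while Ahr, Tiparp and Hmox1 stand highest in EtOH at 48 h.

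Promoter sequences show which of these genes carry the motifs of the 2 pathways next to their start. RefSeq promoters on GRCm38.p6 were at hand for 7 of the 10 genes, and the 250 bases before each start were searched on both strands. The AHR-ARNT core GCGTG was present in 6 of the 7 promoters, all but that of Nqo1, against 28.2% of 32851 promoters genome-wide. The antioxidant response element core TGACNNNGC was present in 2 of the 7, Arnt and Gclm, against 10.2% genome-wide. The FOXO site TGTTTAC was in none of the 7, against 3.17% genome-wide. The 3 motifs do not overlap each other in these windows. Below are 3 promoters, 5′ to 3′ on the gene's strand, with motif matches in capitals on either strand: Tiparp, an AHR target that was expressed and changed; Cyp1a1, the classical AHR target that stayed near zero; and Gclm, an abundant NRF2 target with the antioxidant core that was called in no comparison.
Tiparp (chr3:65528197-65528446, plus strand): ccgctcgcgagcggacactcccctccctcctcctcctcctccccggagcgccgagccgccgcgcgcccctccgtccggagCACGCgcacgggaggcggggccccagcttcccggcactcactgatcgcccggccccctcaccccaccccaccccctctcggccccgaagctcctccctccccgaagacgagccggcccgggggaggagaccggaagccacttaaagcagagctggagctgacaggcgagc
Cyp1a1 (chr9:57697363-57697612, plus strand): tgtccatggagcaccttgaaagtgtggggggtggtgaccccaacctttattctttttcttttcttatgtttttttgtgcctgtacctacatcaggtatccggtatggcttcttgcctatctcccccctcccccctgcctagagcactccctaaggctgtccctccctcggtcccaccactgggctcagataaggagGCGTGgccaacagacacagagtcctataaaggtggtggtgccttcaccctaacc
Gclm (chr3:122245307-122245556, plus strand): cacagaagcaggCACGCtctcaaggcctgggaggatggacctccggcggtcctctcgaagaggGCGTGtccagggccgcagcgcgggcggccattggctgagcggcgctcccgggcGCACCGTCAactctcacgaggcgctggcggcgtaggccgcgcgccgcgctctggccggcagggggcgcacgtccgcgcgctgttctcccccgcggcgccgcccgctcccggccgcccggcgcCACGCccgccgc
Counted from the start, the AHR-ARNT core lies at −170 in Tiparp on the minus strand and at −54 in Cyp1a1 on the plus strand. Gclm carries the AHR-ARNT core at −238, −187 and −12 and the antioxidant core at −134 on the minus strand. A match describes these letters and not a bound site.

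With AS1842856 none of the 6 tested genes changed at 24 h, and Tiparp and Hmox1 rose at 48 h. At 24 h limma called 0 of 6, with 0 at an unadjusted p under 0.05, beside 0.00872% of all tested genes called, and the authors' deposited table also has 0 of 6, beside 0.131%. Treated and vehicle libraries overlapped at 24 h for all 6 genes, and 6.32% of all tested genes showed no overlap. The 24 h differences lay between −0.08 (Ahr) and 0.16 (Hmox1) on the log2 scale, each with an adjusted p of 1.00, and their 95% intervals reached from −0.37 at the lowest to 0.45 at the highest. At 48 h limma called 2 of 6, both higher, beside 4.86% of all tested genes (1.88% higher). The authors' deposited table has 3 of 6 under an adjusted p of 0.05, beside 13.1% of all tested genes, and in 3 of 6 the treated and vehicle libraries did not overlap, beside 26.9% of all tested genes. With the replicate number as a block, limma called 1629 of all tested genes at 48 h in place of 557. The median difference of the 6 genes was 0.18 at 48 h, beside 0.00 over all tested genes. With 4-OHT, Ahr, Tiparp and Gclc fell at both times, 3 of 6 at 24 h beside 29.5% of all tested genes (13.7% lower) and 3 of 6 at 48 h beside 50.8% (25.8% lower). The authors' deposited table has 2 of 6 at 24 h, beside 21.6%, and 2 of 6 at 48 h, beside 42.8%. Treated and vehicle libraries did not overlap for 4 of 6 genes at 24 h, beside 45.9% of all tested genes, and for 3 of 6 at 48 h, beside 59.8%. The share of 3 in 6 at 48 h is near that of all tested genes.

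**Figure D2:**
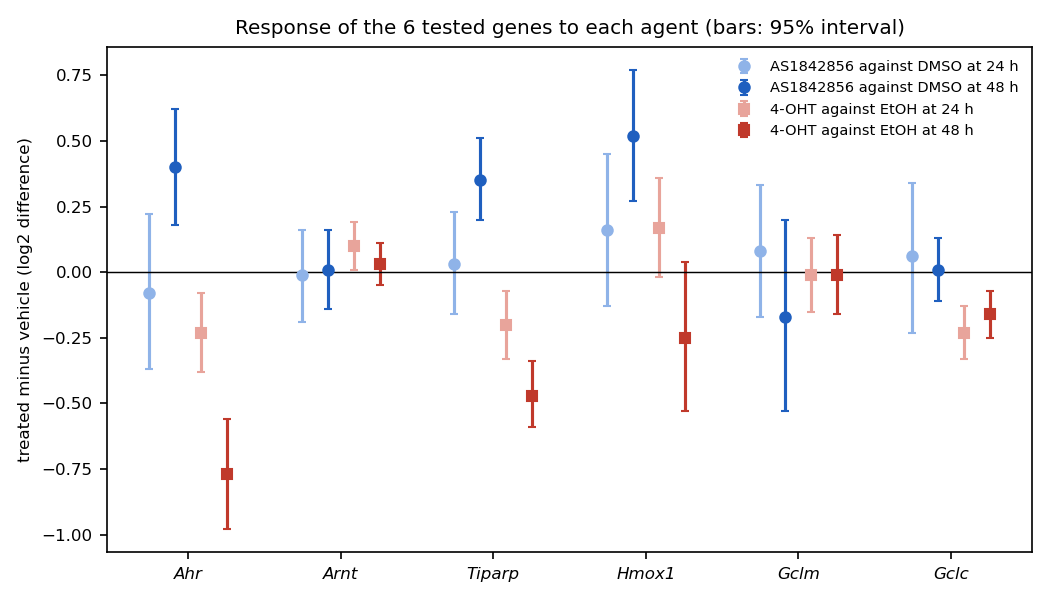
Difference between treated and vehicle libraries (log2, y axis) for the 6 tested genes under the 4 agent comparisons; points are limma estimates and bars 95% intervals, n = 3 against 3. Ahr and Tiparp lie above zero with AS1842856 at 48 h and below zero with 4-OHT at both times, and the intervals of Gclm include zero in all 4 comparisons.

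Ahr, the ligand-binding receptor (chr12:35497974-35535038, minus strand, GRCm38), was lower in 4-OHT than in EtOH. At 24 h its values were 5.73, 5.73 and 5.75 in EtOH and 5.53, 5.53 and 5.45 in 4-OHT. At 48 h they were 6.09, 6.29 and 6.30 in EtOH and 5.34, 5.58 and 5.46 in 4-OHT. Every 4-OHT library lay below every EtOH library of its time, and at 48 h the EtOH libraries were higher than at 24 h while those with 4-OHT were not. Ahr fell by 0.23 ± 0.06 (SE) at 24 h (limma adjusted p = 0.0284) and by 0.77 ± 0.09 at 48 h (adjusted p = 1.69e-04). The 24 h call was lost without any 1 of the 6 libraries (adjusted p 0.0543 to 0.0783), and the authors' deposited table gives −0.55 ± 0.24 there with an adjusted p of 0.0964. At 48 h the call held without each library, and the authors' deposited table gives a log2 fold change of −1.62 ± 0.24.

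In the AS1842856 arm, Ahr at 24 h was 5.53, 5.86 and 5.74 in DMSO and 5.49, 5.81 and 5.60 with the compound, and the groups overlapped. At 48 h it was 5.47, 5.39 and 5.43 in DMSO and 5.90, 5.67 and 5.91 with the compound, with all 3 treated libraries above all 3 vehicle libraries. The 48 h difference was 0.40 ± 0.09 with a limma adjusted p of 0.0558, above the threshold of 0.05. With the replicate number as a block, which pairs the libraries of this comparison, the adjusted p was 0.0288, and the authors' deposited table gives 0.96 ± 0.24 with an adjusted p of 0.00191.

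Arnt, the partner that AHR needs to bind DNA and that other factors of its family share (chr3:95434388-95497240, plus strand), stayed within a narrow band of 10.22 to 10.67 over the 24 libraries. With 4-OHT at 24 h its values were 10.49, 10.53 and 10.43 against 10.40, 10.41 and 10.35 in EtOH. The groups did not overlap, but the difference of 0.10 ± 0.04 had a limma adjusted p of 0.0993, and it reached 0.0451 without 4-OHT replicate 3. In the other 3 agent comparisons the differences were −0.01, 0.01 and 0.03, and no 95% interval reached beyond 0.19 in either direction.

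Tiparp, an AHR target that encodes an ADP-ribosyltransferase and restrains AHR in turn (chr3:65528410-65555518, plus strand), fell with 4-OHT at both times and rose with AS1842856 at 48 h. With 4-OHT at 24 h it was 8.86, 8.90 and 9.0 against 9.11, 9.08 and 9.19 in EtOH. At 48 h it was 9.04, 9.09 and 8.96 against 9.44, 9.51 and 9.56. All 4-OHT libraries were below all EtOH libraries of the same time. Tiparp fell by 0.20 ± 0.06 at 24 h (limma adjusted p = 0.0293) and by 0.47 ± 0.05 at 48 h (adjusted p = 1.33e-04). The 24 h call was lost without EtOH replicate 1 (adjusted p = 0.0687) or 3 (0.0985), without 4-OHT replicate 1 (0.0824) or 2 (0.0868), and with no minimum on low genes (0.0613), whereas the 48 h call held without each library.

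With AS1842856 at 48 h Tiparp was 9.46, 9.42 and 9.48 against 9.18, 9.12 and 9.0 in DMSO, so that every treated library was above every vehicle library. It rose by 0.35 ± 0.07 (limma adjusted p = 0.0291), and the authors' deposited table gives 0.55 ± 0.10 with an adjusted p of 8.73e-06. This call was lost without AS1842856 replicate 1 (adjusted p = 0.0945), 2 (0.0855) or 3 (0.133), without DMSO replicate 2 (0.0840) or 3 (0.0923), and with no minimum on low genes (0.0648). At 24 h the compound libraries, at 9.23, 9.37 and 9.21, overlapped those of DMSO, at 9.19, 9.18 and 9.35.

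The other AHR-induced members were low in every library and were called with neither agent. Ahrr, which competes with AHR for ARNT (chr13:74211118-74292331, minus strand), ranged from 2.67 to 3.05 over the 24 libraries. Cyp1a1 (chr9:57687928-57703824, plus strand) and Cyp1b1 (chr17:79701537-79715061, minus strand), whose enzymes oxidise polycyclic aromatic compounds, ranged from 0.22 to 0.31 and from −0.44 to −0.35. Nqo1, a quinone reductase that answers to both AHR and NRF2 (chr8:107388225-107403206, minus strand), ranged from 1.37 to 1.50. All 4 lay under the minimum level. In a limma fit with no minimum the lowest adjusted p over the 4 agent comparisons was 0.0651 for Ahrr (4-OHT at 48 h), 0.56 for Cyp1a1, 0.512 for Cyp1b1 and 0.563 for Nqo1. For Ahrr the authors' deposited table gives log2 fold changes of 0.48 ± 0.29 with 4-OHT at 24 h, 0.49 ± 0.28 with 4-OHT at 48 h and 0.44 ± 0.28 with AS1842856 at 48 h, none with an adjusted p under 0.05. At levels this low a modest change was not detectable in these values.

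Hmox1, the haem oxygenase that NRF2 induces and BACH1 represses (chr8:75093621-75100589, plus strand), rose with AS1842856 at 48 h. It was 6.29, 6.17 and 6.22 in DMSO and 6.92, 6.56 and 6.77 with the compound, with no overlap. The difference was 0.52 ± 0.11 (limma adjusted p = 0.0399), and the authors' deposited table gives 0.95 ± 0.24 with an adjusted p of 0.0014. The call was lost without AS1842856 replicate 1 (difference 0.43, adjusted p = 0.111) or 3 (0.151), without DMSO replicate 2 (0.124) or 3 (0.118), and with no minimum on low genes (0.110). At 24 h the values were 5.83, 5.87 and 5.95 in DMSO and 6.06, 6.25 and 5.83 with the compound, which overlapped.

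With 4-OHT, Hmox1 did not pass the test at either time. At 24 h it was 6.15, 6.10 and 6.33 in EtOH and 6.38, 6.39 and 6.32 with 4-OHT, a difference of 0.17 ± 0.08 (limma adjusted p = 0.16). At 48 h it was 6.64, 6.97 and 7.04 in EtOH and 6.46, 6.66 and 6.79 with 4-OHT, a difference of −0.25 ± 0.13 (adjusted p = 0.129). The 48 h groups overlapped through EtOH replicate 1, and without that library the difference was −0.37 with an adjusted p of 0.026.

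Gclc and Gclm encode the catalytic and the modifier subunit of glutamate-cysteine ligase, the first enzyme of glutathione synthesis. Gclc fell with 4-OHT, and Gclm was called with neither agent. Gclc (chr9:77754535-77794485, plus strand) was 10.95, 10.83 and 10.88 in EtOH and 10.68, 10.70 and 10.60 with 4-OHT at 24 h. At 48 h it was 10.75, 10.65 and 10.67 in EtOH and 10.56, 10.51 and 10.52 with 4-OHT. All treated libraries were below all vehicle libraries at both times. Gclc fell by 0.23 ± 0.04 at 24 h (limma adjusted p = 0.00611) and by 0.16 ± 0.04 at 48 h (adjusted p = 0.00818), and both calls held without each library. In a single model of all 8 groups the adjusted p was 0.0514 at 24 h and 0.117 at 48 h, and the authors' deposited table gives 0.0353 and 0.116. With AS1842856 Gclc differed from DMSO by 0.06 ± 0.12 at 24 h and 0.01 ± 0.05 at 48 h, with overlap at both times.

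Gclm (chr3:122245557-122270732, plus strand), the gene whose promoter above holds the antioxidant core, was called in none of the 4 agent comparisons. With 4-OHT its differences were −0.01 ± 0.06 at 24 h and −0.01 ± 0.07 at 48 h. With AS1842856 they were 0.08 ± 0.11 and −0.17 ± 0.16, and at 48 h DMSO replicate 2 stood at 10.23 against 9.62 and 9.68 in the other DMSO libraries. At 24 h, AS1842856 replicate 3 had the lowest Gclm (9.74) and the lowest Gclc (10.63) of its group, against 10.16 and 10.01 for Gclm and 10.95 and 11.11 for Gclc in the other 2 libraries.

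The responses to the 2 agents were then compared by a test of their difference, the AS1842856-minus-DMSO change less the 4-OHT-minus-EtOH change in 1 model of the 4 groups of a time. At 48 h limma called 4 of 6 genes, all with a more positive response to the compound, beside 37.1% of all tested genes (18.0% higher). The difference between responses was 1.17 ± 0.13 for Ahr (adjusted p = 4.35e-05), 0.82 ± 0.08 for Tiparp (2.05e-05), 0.77 ± 0.18 for Hmox1 (0.00484) and 0.17 ± 0.06 for Gclc (0.046). The Gclc call was lost in a fit with no minimum on low genes, after rescaling the libraries, without a variance trend, in the model of all 8 groups and without most single libraries, with adjusted p over all alternatives from 0.0263 to 0.262. At 24 h limma called 0 of 6, beside 6.1% of all tested genes called. Those were 700 genes, but 2037 without AS1842856 replicate 3 and 408 without 4-OHT replicate 2. Of the 6, 1 had an unadjusted p under 0.05 (Tiparp, 0.23 ± 0.10). Gclc at 24 h differed by 0.28 ± 0.14 (adjusted p = 0.27), and by 0.42 without AS1842856 replicate 3 (adjusted p = 0.0141). Over all tested genes, 359 were called in both 48 h agent comparisons, of which 78 were higher with AS1842856 and lower with 4-OHT, as Tiparp was, and 140 showed the reverse.

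The 2 vehicle groups themselves differed at 48 h for Ahr, Tiparp and Hmox1, and for Arnt, but not detectably for Gclc (0.02 ± 0.05, adjusted p = 0.745), and the agent comparisons rest on these vehicle libraries. At 24 h limma had 2 of 6 at an unadjusted p under 0.05 between DMSO and EtOH (Hmox1 and Gclm). It called 0 of 6, beside 2.85% of all tested genes called. That background rests on single libraries: 327 genes were called, but 15 without EtOH replicate 3 and 953 without DMSO replicate 3. At 48 h it called 4 of 6, all lower in DMSO, beside 21.6% of all tested genes (11.2% lower), and the 2476 genes called became 741 without EtOH replicate 3 and 3941 without DMSO replicate 1. Ahr was lower in DMSO by −0.80 ± 0.09 (adjusted p = 0.00251), Hmox1 by −0.66 ± 0.12 (0.00966), Tiparp by −0.40 ± 0.07 (0.00827) and Arnt by −0.19 ± 0.05 (0.0321). The calls for Ahr, Tiparp and Hmox1 held without each library. That for Arnt was lost without DMSO replicate 2 (adjusted p = 0.0932) or 3 (0.0945) and without EtOH replicate 1 (0.0607), 2 (0.127) or 3 (0.114). At 48 h the level of Ahr in 4-OHT (mean 5.46) lay beside that in DMSO (5.43), but in AS1842856 (5.83) it lay below that in EtOH (6.23). The level of Tiparp in 4-OHT (9.03) lay beside that in DMSO (9.10), and in AS1842856 (9.45) beside that in EtOH (9.50). The level of Hmox1 in 4-OHT (6.63) lay above that in DMSO (6.23), and in AS1842856 (6.75) near that in EtOH (6.88). The arms differ in solvent, and the labels give no date of culture or sequencing, so solvent and any difference in handling between the arms cannot be told apart.

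Time in culture was followed by comparing 48 h with 24 h within each group, a comparison added after the values had been seen. In EtOH limma called 5 of 6, beside 25.4% of all tested genes. Hmox1 rose by 0.69 ± 0.12 (adjusted p = 0.00553), Ahr by 0.49 ± 0.08 (0.00468), Tiparp by 0.38 ± 0.05 (0.00255) and Arnt by 0.24 ± 0.04 (0.00326), while Gclc fell by 0.20 ± 0.04 (0.0125). The Gclc call was lost with no minimum on low genes (0.0524) and in the model of all 8 groups (0.119). In DMSO it called 0 of 6, beside 0.00872% of all tested genes called. Of the 6, 2 had an unadjusted p under 0.05, Hmox1 at 0.34 ± 0.09 (adjusted p = 0.405) and Ahr at −0.28 ± 0.11 (0.461). With 4-OHT it called 1 of 6, Arnt at 0.17 ± 0.04 (adjusted p = 0.0184), beside 22.3% of all tested genes (10.6% higher), and this call was lost with the replicate block and without 4-OHT at 48 h replicate 2 (0.0635) or 3 (0.0608). Hmox1 was at 0.27 ± 0.09 with 4-OHT (adjusted p = 0.0687). Without 4-OHT at 48 h replicate 1 Hmox1 passed in addition to Arnt (0.36, adjusted p = 0.028), and without 4-OHT at 24 h replicate 3 Gclc did (−0.16, 0.0265). With AS1842856 it called 0 of 6, beside 0.401% of all tested genes called. Those were 46 genes, but 412 without AS1842856 at 24 h replicate 3 and 10 without AS1842856 at 48 h replicate 1. Of the 6, 3 had an unadjusted p under 0.05, and Hmox1 differed by 0.70 ± 0.14 (adjusted p = 0.0764). These comparisons share libraries with the agent comparisons, so a high EtOH group at 48 h enters both.

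**Figure D3:**
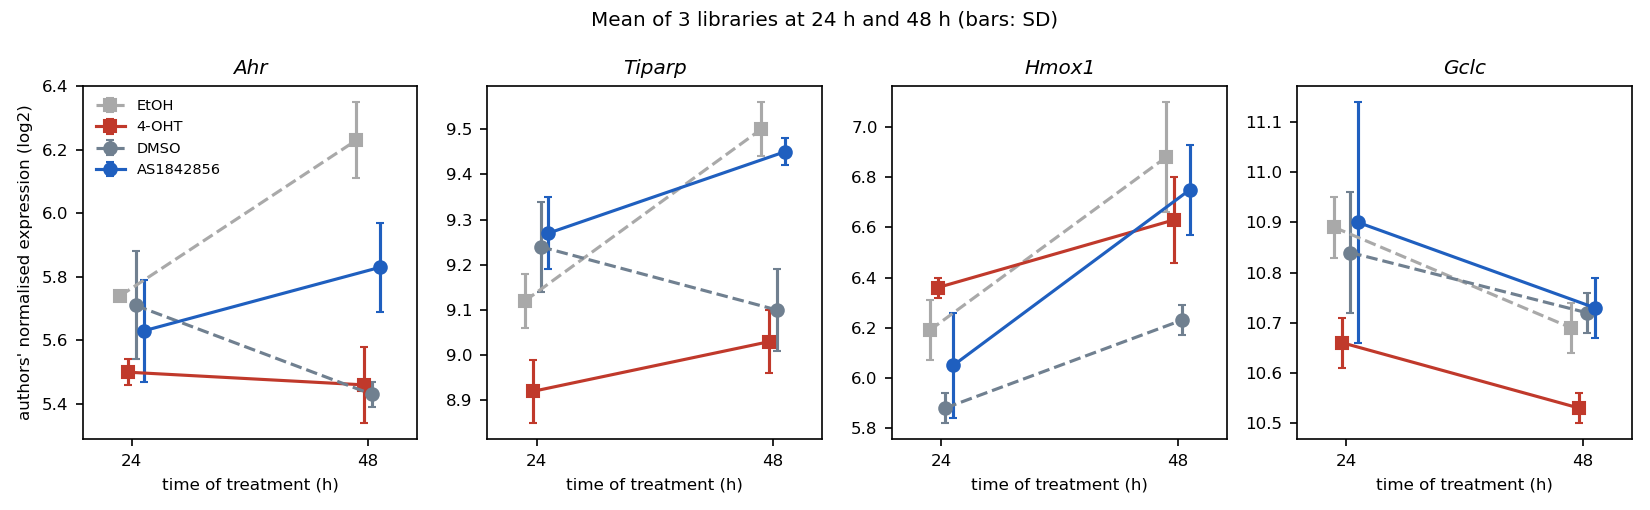
Mean expression of Ahr, Tiparp, Hmox1 and Gclc (authors' log2 values, y axis) at 24 h and 48 h (x axis) in the 4 treatments; bars are SD, n = 3. In EtOH the means of Ahr, Tiparp and Hmox1 climb to 6.23, 9.50 and 6.88 by 48 h, while in DMSO Ahr and Tiparp end at 5.43 and 9.10. Hmox1 is also higher at 48 h in DMSO (5.88 to 6.23), 4-OHT (6.36 to 6.63) and AS1842856 (6.05 to 6.75).

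The change of each response between the times was tested in turn. For 4-OHT limma called 2 of 6, both lower, beside 15.6% of all tested genes (9.03% lower), with Ahr at −0.54 ± 0.11 (adjusted p = 0.00692) and Tiparp at −0.26 ± 0.08 (0.0374). The Tiparp call was lost without 8 of the 12 libraries in turn, namely EtOH at 24 h replicates 1 (0.0782) and 2 (0.0872), EtOH at 48 h replicates 2 (0.0700) and 3 (0.0900), 4-OHT at 24 h replicates 2 (0.0568) and 3 (0.0773), and 4-OHT at 48 h replicates 1 (0.0612) and 3 (0.0860). It was also lost with no minimum on low genes (0.0585), after rescaling (0.0572) and in the model of all 8 groups (0.107). Hmox1 was at −0.42 ± 0.16 (adjusted p = 0.0955), and at −0.54 without EtOH at 48 h replicate 1 (0.0228). For AS1842856 limma called 0 of 6, beside 0.00872% of all tested genes called. Of the 6, 2 had an unadjusted p under 0.05, Ahr at 0.48 ± 0.16 and Tiparp at 0.32 ± 0.10, each with an adjusted p of 1.00.

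Across the 24 libraries Ahr and Tiparp varied together (Pearson r = 0.79), Ahr and Hmox1 less so (r = 0.50), and Gclm and Gclc moderately (r = 0.59), while Arnt and Gclc ran opposite (r = −0.78). These coefficients describe libraries that share treatment groups and are given without a test. Among all tested genes, the patterns most like that of Ahr were those of Gm7334 (r = 0.92), Psph (0.88) and Tlr4 (0.87), and those most like that of Tiparp were Alkbh3 (0.86), Evi2a (0.85) and Atf4 (0.84). Closest to Hmox1 were Jdp2 (0.91), Ddit3 (0.90) and 2410006H16Rik (0.89). Closest to Gclc were 2700038G22Rik (0.92), Wdr3 (0.90) and Sf3b3 (0.89).

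The wider pathways were described with 8 further lists that hold 103 genes, of which 77 passed the minimum. Over all tested genes, as above, 0.00872% and 4.86% were called with AS1842856 at 24 h and 48 h, and 29.5% and 50.8% with 4-OHT. With AS1842856 at 24 h limma called 0 of the 77, with 4 at an unadjusted p under 0.05 and 0 in the authors' deposited table. At 48 h it called 7, of which 3 rose and 4 fell. The authors' deposited table gives 14 of the 77 there, beside 13.1% of all tested genes called. With 4-OHT, 17 rose and 14 fell at 24 h, and 24 rose and 26 fell at 48 h. The medians over the 77 genes lay between −0.02 and 0.03 in the 4 agent comparisons.

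Among proteins that hold AHR or help it act, 10 of 11 were tested. With 4-OHT 1 rose and 3 fell at 24 h, and 4 rose and 4 fell at 48 h, beside 29.5% and 50.8% of all tested genes called. With AS1842856 none of 10 was called at 48 h, beside 4.86% (3 at an unadjusted p under 0.05). The authors' deposited table has 1 of 10 there, beside 13.1%. At 48 h with 4-OHT, the HSP90 co-chaperone gene Ptges3 fell by 0.45 ± 0.03 (limma adjusted p = 5.7e-06), Hsp90aa1 by 0.26 ± 0.04 and the corepressor gene Nrip1 by 0.33 ± 0.04 (2.69e-04), and the coactivator gene Ncoa3 rose by 0.49 ± 0.07.

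Of 9 further genes known to be induced by AHR, 3 were tested and 4 were at 0 in every library. Nedd9, which encodes a scaffold of cell adhesion, fell with both agents, by 0.36 ± 0.03 with 4-OHT at 48 h (limma adjusted p = 1.91e-05) and by 0.56 ± 0.05 with AS1842856 at 48 h (0.00225). Scin, which encodes an actin-severing protein, fell by 0.67 ± 0.07 with 4-OHT at 48 h (7.8e-05) and was at 0.17 ± 0.09 with AS1842856. Ugt1a6a shares exons with its neighbours in the Ugt1a cluster and is uncertain for that reason; it was called with neither agent. Enzymes that turn tryptophan into kynurenine and related AHR ligands were tested for 7 of 10. With 4-OHT at 48 h, Haao rose by 1.24 ± 0.11 (2.86e-05) and Afmid by 0.26 ± 0.09 (0.0323), whereas Kynu fell by 0.90 ± 0.13 (4.56e-04) and Kyat3 by 0.19 ± 0.05 (0.0156). With AS1842856 at 48 h none of the 7 was called by limma, beside 4.86% of all tested genes. None was at an unadjusted p under 0.05 or called in the authors' deposited table, where 13.1% of all tested genes were called.

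All 12 regulators of NRF2 were tested. With 4-OHT 4 rose and 1 fell at 24 h and 3 rose and 2 fell at 48 h, 5 of 12 each time beside 29.5% and 50.8% of all tested genes, and with AS1842856 at 48 h 1 rose, beside 4.86%. Nfe2l2, the gene for NRF2, was 0.32 ± 0.04 higher with 4-OHT at 24 h (limma adjusted p = 0.00118) and 0.52 ± 0.06 higher at 48 h (1.46e-04). With AS1842856 at 48 h it was at 0.23 ± 0.06 (0.0572). Mafk, a small MAF partner, rose by 0.47 ± 0.04 with 4-OHT at 48 h (1.3e-05), and Bach1, the repressor of Hmox1, by 0.27 ± 0.05 (0.00113). Sqstm1, whose product can sequester KEAP1, rose by 0.30 ± 0.03 at 24 h (3.94e-04) and was at 0.12 at 48 h (0.112). Bach2, the B cell relative of Bach1, fell by 0.63 ± 0.09 with 4-OHT at 24 h (0.00125). It was at −0.37 ± 0.16 with 4-OHT at 48 h (0.0788) and, with AS1842856, at −0.53 ± 0.21 at 24 h (1.00) and −0.79 ± 0.23 at 48 h (0.0995). Keap1 was at 0.11 with 4-OHT and −0.07 with AS1842856 at 48 h, with adjusted p of 0.0507 and 0.558. The 1 regulator that rose with AS1842856 was Nfe2l1, a relative of NRF2, at 0.33 ± 0.05 (0.0146), which with 4-OHT at 48 h fell by 0.41 ± 0.09 (0.00529).

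Of 25 other genes induced by NRF2, 17 were tested. With 4-OHT at 48 h 6 rose and 6 fell, beside 50.8% of all tested genes called. With AS1842856 at 48 h 0 were called, beside 4.86% (3 at an unadjusted p under 0.05). The authors' deposited table has 1 of 17 there, beside 13.1%. The ferritin genes Fth1 and Ftl1 rose with 4-OHT at 48 h by 0.57 ± 0.04 (limma adjusted p = 4.07e-06) and 0.30 ± 0.04 (2.76e-04), and Ephx1, an epoxide hydrolase, by 1.15 ± 0.08 (8.79e-06). Abcc4, an efflux pump, fell by 0.50 ± 0.05 (7.01e-05). With AS1842856 at 48 h these 4 genes were at 0.04, 0.21, 0.45 and 0.14, none called.

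Genes that supply cysteine and use glutathione were tested for 11 of 12, and with 4-OHT at 48 h 4 rose and 5 fell, beside 50.8% of all tested genes called. Cth, which makes cysteine from cystathionine, fell by 2.05 ± 0.08 (limma adjusted p = 3.63e-07), and Chac1, which breaks glutathione down, by 1.40 ± 0.07 (9.81e-07). Slc3a2, the heavy chain of the cystine transporter, fell by 0.76 ± 0.05 (6.06e-06), and Glrx, a glutaredoxin, rose by 0.46 ± 0.06 (1.53e-04). With AS1842856 at 48 h Slc3a2 rose by 0.39 ± 0.07 (0.0309), while Cth was at 0.77 ± 0.19 (0.0623) and Chac1 at 0.50 ± 0.23 (0.27). The responses to the 2 agents at 48 h differed by 2.82 ± 0.23 for Cth, 1.90 ± 0.27 for Chac1 and 1.15 ± 0.10 for Slc3a2 (adjusted p = 3.99e-06, 1.98e-04 and 6.31e-06). The vehicle means also differed at 48 h. Cth was at 10.68 in EtOH and 8.44 in DMSO, Chac1 at 9.78 and 8.59, and Slc3a2 at 12.78 and 11.94. With 4-OHT the means were 8.63, 8.38 and 12.02, near those in DMSO. The part of the vehicle gap in these differences was not tested.

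**Figure D4:**
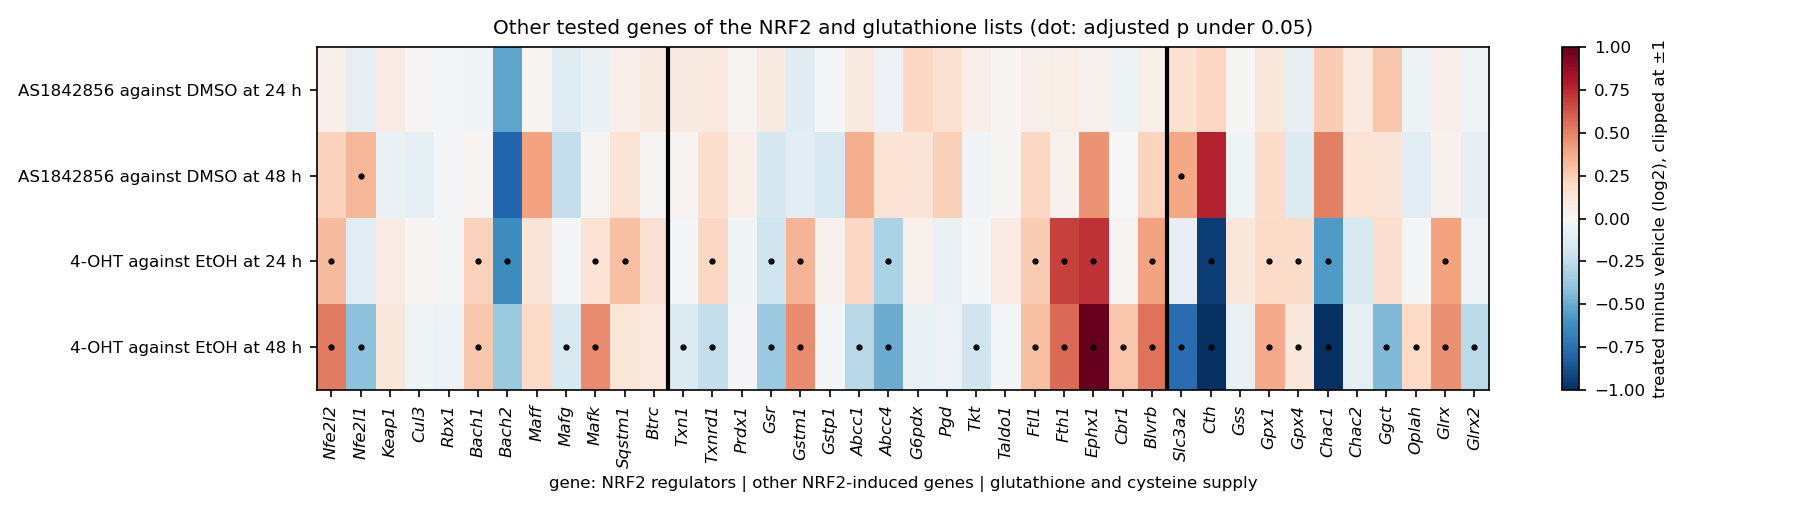
Treated-minus-vehicle difference (log2, colour, clipped at ±1) of the 40 tested genes of 3 lists (NRF2 regulators, other NRF2-induced genes, glutathione and cysteine supply, along the x axis) in the 4 agent comparisons (rows); dots mark an adjusted p under 0.05. AS1842856 has 2 dots, Nfe2l1 and Slc3a2 at 48 h, and 4-OHT has many of both signs.

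Haem enzymes and iron carriers were tested for 9 of 10, and at 48 h 2 rose and 3 fell with 4-OHT, beside 50.8% of all tested genes called, and 1 fell with AS1842856, beside 4.86%. Cpox fell with 4-OHT at 48 h by 0.58 ± 0.05 (limma adjusted p = 2.36e-05). Urod rose by 0.41 ± 0.08 with 4-OHT (0.0018) and fell by 0.38 ± 0.07 with AS1842856 (0.0309). Tfrc, the transferrin receptor, fell by 0.40 ± 0.06 with 4-OHT at 24 h (0.00133) and was at 0.57 ± 0.14 with AS1842856 at 48 h (0.0601). Of 14 other receptors for foreign compounds or steroids and partners of cytochrome P450 enzymes, 8 were tested. With AS1842856 at 48 h Esrra rose by 0.41 ± 0.07 (0.0243), and Cyb5a and Rxrb each fell by 0.37 (0.0173 and 0.00712). Cyb5a fell with 4-OHT at 48 h by 0.37 ± 0.04 as well, while Rxra rose by 0.38 ± 0.07 (0.00119) and Por, the electron donor of cytochrome P450 enzymes, by 0.32 ± 0.06 (0.00275). Esr1, which encodes an oestrogen receptor that 4-OHT binds, was at −0.08 and −0.06 with 4-OHT at 24 h and 48 h, neither called. Its group means were very high, from 14.66 to 15.1. All these cells carry Cre-ERT2, and whether reads of that construct were counted as Esr1 was not tested.

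From the marker lists of other cell types, the few genes tested rose with 4-OHT at both times, beside 29.5% and 50.8% of all tested genes called. Most markers of these lists did not pass the minimum, among them Cd3e, Cd3d, Cd3g, Cd4, Cd8a, Cdh5, Kdr and Col1a1. Of 10 myeloid markers 3 were tested, and all 3 (Lyz2, Csf1r and Cx3cr1) rose with 4-OHT at both times, while Elane, S100a8 and S100a9 were at 0 in every library. The summed myeloid level, on a log2 scale, was 6.70 to 6.96 in EtOH and 7.57 to 7.67 with 4-OHT at 24 h, and 6.82 to 7.14 and 7.73 to 7.91 at 48 h. It was 6.42 to 6.72 in DMSO and 6.57 to 6.73 with AS1842856 at 48 h. Both tested T and NK markers of 10 rose with 4-OHT, at 48 h Lck by 1.81 ± 0.06 (limma adjusted p = 1.3e-07) and Zap70 by 1.63 ± 0.11 (6.08e-06), and 2 of the 10 were at 0. The summed T and NK level was 10.25 to 10.44 in EtOH and 12.09 to 12.19 with 4-OHT at 48 h. The mean of Lck alone was 10.24 and 12.05 there. Zap70 also rose with AS1842856 at 48 h, by 1.20 ± 0.14 (0.0066), while Lck was at 0.00 ± 0.07. Of 9 stromal and endothelial markers the 1 tested, Pecam1, rose by 1.26 ± 0.05 with 4-OHT at 48 h (4.02e-07), and of 6 erythroid markers the 1 tested, Gata1, by 0.37 ± 0.10 (0.0155). Csf1r and Gata1 were low, with means of 3.17 and 2.92 in EtOH and 4.35 and 3.29 with 4-OHT at 48 h. The minimum was set on the mean over all libraries, and both genes were highest in the 4-OHT groups. They may have passed it only through those groups, so their rise is not independent of the choice of tested genes. B-lineage markers were at 15.64 to 15.72 with AS1842856 and 15.95 to 16.08 in DMSO at 48 h, where 6 of 10 fell beside 4.86% of all tested genes called, among them Cd79b by 0.62 ± 0.07 (limma adjusted p = 0.00712) and Ebf1 by 0.57 ± 0.06 (0.00626). With 4-OHT 3 of the 10 rose and 5 fell at 24 h, and 5 rose and 2 fell at 48 h, beside 29.5% and 50.8%. In bulk RNA, a change in the number of cells of a type and a change in RNA per cell, also within the leukaemia cells, cannot be told apart. The part of these shifts in the values of Ahr, Tiparp, Hmox1 and Gclc was not tested.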

How the data were processed

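RNA-seq of 24 libraries (8 groups of 3) was used as deposited. Per the submitters' processing notes the tools were STAR 2.7.11b, Salmon 1.1.1 and DESeq2 1.44.0 with the mm10 genome, and no role or order is given. The authors deposited 4 tables of 41444 genes with log2-scale expression per library. The transformation is not named, and values are shrunken, more so at low levels. Also given, per the file headers, are a log2 fold change with its SE, a test score, a p-value and an adjusted p-value. The test score was not used. Of the genes, 21444 are at 0 in every library. The 4 tables share 1 mean column, and among 5642 genes with a mean normalised count under 1 the 4 tables' mean values spanned at most 0.03 for 95% of genes, so values were compared across tables.

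Since the files hold log2 values and not counts, limma 3.58.1 (R 4.3.3; trended variance, 2-sided) was fitted over genes with a mean normalised count of at least 10, with the groups of each comparison only, and checked on simulated data. Depth per library is unknown, so no counting interval is given. Every pair of libraries differed, by a root mean square of at least 0.144. Locations come from GENCODE M21, and promoters from RefSeq.

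The members and lists were chosen with earlier results of these data known. Named genes were the 10 members, Foxo1, up to 4 genes per list with the smallest adjusted p under 0.05 in any agent comparison, receptor or repressor genes (Nfe2l2, Keap1, Bach1, Bach2 and Esr1 among them) and the 3 genes most correlated with each called member. A few of these are not reported here. Ugt1a6a, Nfe2l1, Esrra and the cell type markers were named after their values were seen. Whether replicate numbers pair the libraries was checked by correlating deviations from group means. Same-numbered libraries gave r of 0.41, 0.25 and 0.15 for AS1842856 at 48 h, while treated replicate 2 with vehicle replicate 3 gave 0.18. The numbers may pair libraries there, most clearly replicate 1, but this is not settled. In the other agent comparisons r was under 0.1 for at least 1 same-numbered pair. With AS1842856 at 24 h, r was 0.46 for treated 1 with vehicle 1. It was 0.40 for treated 2 with vehicle 3 and 0.51 for treated 3 with vehicle 2. The main 24 h fit took libraries as unpaired, and no fit with that pairing was run. Alternatives were other minimums on low genes, rescaled libraries, no variance trend, 1 model of all groups, the replicate block, each library left out, and the authors' adjusted p-value.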

Additional observations from a re-analysis of the deposited data

Results flagged for a closer look

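Responses of 4 of the 6 tested genes differed between the agents at 48 h, by a test of the difference itself (limma, 3 libraries per group, Benjamini-Hochberg over all tested genes), beside 37.1% of all tested genes called (18.0% higher). The AS1842856 response exceeded the 4-OHT response by 1.17 for Ahr (adjusted p = 4.35e-05), 0.82 for Tiparp (2.05e-05), 0.77 for Hmox1 (0.00484) and 0.17 for Gclc (0.046), all in log2 units. The Gclc call was lost without 10 of the 12 libraries in turn and under 4 of 6 other settings. At 48 h the 2 vehicle groups also differed for Ahr (−0.80), Tiparp (−0.40) and Hmox1 (−0.66), DMSO minus EtOH, and the part of this in the result was not tested.

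The 4-OHT response differed between the times for 2 of the 6 genes, beside 15.6% of all tested genes called (9.03% lower). It was more negative at 48 h than at 24 h by −0.54 for Ahr (limma adjusted p = 0.00692) and −0.26 for Tiparp (0.0374), a call lost without 8 of the 12 libraries in turn. Over the same interval the EtOH libraries rose by 0.49 for Ahr and 0.38 for Tiparp, while the 4-OHT libraries differed by −0.05 and 0.11. Groups of 3 libraries are too small for a check of single outlying values.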

How the results depend on the processing

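No called difference of a tested gene changed direction under any alternative. Of the 6 tested genes, those called with AS1842856 at 48 h went from 2 to 0 with no minimum on low genes, and numbered 0 to 2 in fits that left out 1 library. With 4-OHT at 24 h they went from 3 to 1 in the model of all 8 groups, and numbered 1 to 3 with a library left out. For the change of the 4-OHT response between times they went from 2 to 1 with no minimum, after rescaling and in the model of all 8 groups, and numbered 1 to 3 with a library left out. For time in 4-OHT they went from 1 to 0 in the model of all 8 groups and with the replicate block, and numbered 0 to 2 with a library left out. For time in AS1842856 the model of all 8 groups called 1, and for the difference between agents at 24 h the fits without a library called 0 to 1 (1 without AS1842856 replicate 3). Over all tested genes, AS1842856 at 24 h had 1 call, 4 with no minimum, 0 in the model of all 8 groups, 15 in the authors' deposited table and 1 to 20 with a library left out (20 without AS1842856 replicate 3). AS1842856 at 48 h had 557 calls, 205 with no minimum, 1220 in the model of all 8 groups, 1629 with the replicate block, 1501 in the authors' deposited table and 108 to 901 with a library left out (108 without AS1842856 replicate 3, 901 without DMSO replicate 1). 4-OHT at 24 h had 3381 calls and 2219 in the model of all 8 groups. The cause was not tested.

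Over 84 results on single genes, the replicate block gained 3 calls and lost 3, and the minimum of 50 changed none. Whether replicate numbers pair the libraries was not settled for AS1842856 at 48 h. In the other agent comparisons same-numbered libraries did not correlate throughout. In 4-OHT at 48 h the block gave Hmox1 an adjusted p of 0.0356. With 3 libraries a group and unknown depth, small changes of Ahr, Hmox1 and the 4 low genes cannot be resolved.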
